A study of Mus musculus with 26 samples.

Results

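Of the circadian clock, 8 genes were followed across the series: Arntl, Clock, Npas2, Nfil3, Cry1, Cry2, Rora and Bhlhe40. They make up the activators of the clock, the regulators that act opposite to its output genes, and related repressors. The 8 were chosen by symbol with treated-against-vehicle differences of these same libraries already known, so those differences are given below as a description of the values and carry no test of the choice. All 8 were among the 16322 genes of the tumour files and 7 were among the 14131 genes of the sorted-cell files; Npas2 was not analysed in sorted cells. Each of these passed the filter on low values.

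The mice were of the KPC strain, in which Cre expressed in the pancreas switches on the alleles that give rise to tumours there. They were given either vehicle or GS9820, a drug that inhibits p110δ, the catalytic subunit of a PI 3-kinase found mainly in leukocytes, and treated samples are labelled at 14 days of treatment while vehicle samples carry no day. RNA was sequenced from whole tumours (7 vehicle, 5 treated) and from 2 myeloid populations sorted from spleen, namely PMN labelled "low" (3 vehicle, 4 treated) and monocytes labelled "high" (3 vehicle, 4 treated). The labels give neither age, sex, pooling of animals nor hour of tissue collection, and they do not say that each sample is a separate animal, so p-values measure only the spread between these samples.

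Values are log2 expression values as deposited. The files of the 12 tumours and of the 14 sorted-cell libraries hold different numbers of genes (16322 and 14131). How the libraries were normalized to each other is not given, so comparisons were made only within each set. Sequencing depth is unknown. In whole tumours, fewer cells of a type and less RNA per cell cannot be told apart. Libraries varied in cell content: the mean of 6 acinar marker genes ran from 3.75 to 12.06 in vehicle tumours and from 7.25 to 11.84 in treated tumours, the islet mean from 0.12 to 7.46 and from 5.94 to 9.33, and the ductal and carcinoma epithelium mean from 5.45 to 10.54 and from 8.66 to 9.96. Treated tumour 3 stood apart with a mean of 11.89 over the 4 measured hepatocyte genes, against 0.46 to 6.74 in the other tumours. The classical monocyte list averaged at least 9.31 in every monocyte library and 6.59 to 7.55 in PMN libraries. The neutrophil list averaged 12.22 to 12.46 in PMN and was not low in monocytes, at 8.32 to 11.14. Vehicle monocyte library 3 held the lowest of these monocyte values and stood apart from the other monocyte libraries in several clock genes.

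In the clock, the proteins of Arntl (BMAL1) and Clock, or its paralog Npas2, pair on E-box sequences and switch on the Per and Cry genes, Nr1d1, Nr1d2 and Dbp. PER and CRY proteins then block that pair. A linked loop runs through RORE sequences, where ROR proteins (Rora) activate and the REV-ERB proteins (Nr1d1, Nr1d2) repress Arntl, Nfil3, Cry1 and others. A further loop runs through D-box sequences, where DBP, TEF and HLF activate and NFIL3 represses. In rhythmic tissues Arntl and Nfil3 mRNA are therefore high when Dbp and Nr1d1 mRNA are low.

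The letters of these elements were searched on both strands in RefSeq promoter windows of GRCm38.p6, 250 bases before to 50 after each annotated start. Windows existed for 7 of the 8 genes, with Bhlhe40 the exception. CACGTG, an E-box, occurred in 7.15% of all 32851 windows, TAGGTCA, a RORE core, in 2.61%, and TTANNTAA, a D-box, in 6.0%. Arntl and Nfil3 each held 1 RORE core and Cry1 held 1 E-box, and the windows of Clock, Npas2, Cry2 and Rora held none of these letters. No match overlapped a match to another of the motifs. These 3 matches were the only ones in the 10 windows of the 7 genes, and Arntl had 2 windows, 1 of them with a match. All 3 are shown, with the matching letters in capitals.
Arntl, chr7:113207529-113207558, plus strand: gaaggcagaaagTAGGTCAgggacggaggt
Nfil3, chr13:52981034-52981063, minus strand: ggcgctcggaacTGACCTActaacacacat
Cry1, chr10:85185065-85185304, minus strand: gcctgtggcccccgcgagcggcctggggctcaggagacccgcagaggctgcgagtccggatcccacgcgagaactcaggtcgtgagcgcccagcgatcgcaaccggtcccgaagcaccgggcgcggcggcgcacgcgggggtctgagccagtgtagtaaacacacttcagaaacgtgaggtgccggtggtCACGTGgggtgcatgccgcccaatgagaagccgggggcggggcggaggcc

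The Arntl core began 31 bases after the RefSeq start, and the Nfil3 core, on the opposite strand and so printed as TGACCTA, began 12 bases before it. GENCODE starts both genes further upstream, so that both cores lay in an untranslated part of the gene's exon there. The Cry1 E-box began 60 bases before the RefSeq start and outside the GENCODE gene. A match describes letters only and shows no binding.

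In whole tumours the first question was how the 8 genes stood after the inhibitor. Arntl, Nfil3 and Cry1 had lower means in treated tumours, with log2 differences of -0.98 to -1.43, while Clock, Bhlhe40, Cry2, Npas2 and Rora differed by 0.62 or less in either direction. None of the 8 passed an adjusted p of 0.05 in limma, a linear model fitted over all genes (0 of 8 called; 3 of 8 at an unadjusted p under 0.05). Over all 16296 genes tested, 2.2% were called and 3982 had an unadjusted p under 0.05. These differences come from the contrast with which the genes were chosen, and nothing is read from the count.

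Arntl encodes BMAL1, the activator on which the clock depends. Its log2 values in vehicle tumours ran from 3.63 through a median of 4.30 to 5.07, and the treated tumours had 3.39, 2.65, 3.80, 3.09 and 3.41 (libraries 1 to 5). Treated tumours 1, 2, 4 and 5 lay below every vehicle tumour, and treated tumour 3 lay above vehicle tumour 4 only, so the groups overlapped. The group means were 4.25 ± 0.48 (SD, n = 7) in vehicle and 3.27 ± 0.43 (n = 5) in treated tumours, a difference of -0.98 (SE 0.27).

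Clock encodes the partner of BMAL1 and was nearly level. Vehicle tumours ran from 5.73 through 6.03 to 6.28, and treated tumours had 6.03, 5.80, 6.07, 6.10 and 6.0. All treated values lay inside the vehicle range, and the difference was -0.02 (SE 0.13). Npas2, the paralog that can replace CLOCK, was more spread in treated tumours, at 3.11, 0.89, 1.65, 1.11 and 0.71, against 1.17 through 2.01 to 2.60 in vehicle. Treated tumours 2, 4 and 5 lay below the vehicle range and treated tumour 1 above it, with a difference of -0.43 (SE 0.44).

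Nfil3 encodes the D-box repressor that opposes DBP and is also known as a regulator of lymphocyte and myeloid genes. Vehicle tumours were tightly grouped, from 4.83 through 5.17 to 5.45, and treated tumours had 2.34, 3.78, 5.36, 2.81 and 4.34. Treated tumours 1, 2, 4 and 5 lay below all 7 vehicle tumours, and treated tumour 3 lay within them. The means were 5.16 ± 0.25 (SD, n = 7) and 3.73 ± 1.21 (n = 5), a difference of -1.43 (SE 0.42). Leaving out treated tumour 3 removes the only treated Nfil3 value inside the vehicle range. The Nfil3 difference was then -1.84 and passed the limma threshold, with 472 genes called in all, while Arntl had -1.11 and did not pass. Nfil3 passed under 2 of 22 alternative settings, and no support is read from this.

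Cry1 and Cry2 encode the cryptochromes, repressors of the BMAL1 and CLOCK pair, and they did not share a direction. Cry1 in vehicle tumours ran from 2.76 through 3.54 to 4.25, and treated tumours had 3.67, 1.48, 2.90, 2.37 and 2.51. Treated tumours 2, 4 and 5 lay below every vehicle tumour, and the difference was -0.99 (SE 0.37) between means of 3.58 ± 0.54 (SD, n = 7) and 2.59 ± 0.80 (n = 5). Cry2 in vehicle tumours ran from 3.32 through 4.09 to 5.04, with 4.91, 4.76, 4.23, 4.26 and 3.85 in treated tumours. All treated Cry2 values lay within the vehicle range, and the difference was 0.27 (SE 0.29).

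Rora encodes the ROR activator of Arntl, and Bhlhe40 encodes DEC1, an E-box repressor also induced by hypoxia and cytokines. Rora in vehicle tumours ran from 4.44 through 6.20 to 7.39, and treated tumours had 5.57, 6.51, 7.16, 6.52 and 6.92, all within that range, for a difference of 0.62 (SE 0.43). Bhlhe40 ran from 7.90 through 8.66 to 9.05 in vehicle tumours and had 8.08, 8.69, 8.89, 7.92 and 8.86 in treated tumours. The Bhlhe40 means were 8.49 in both groups. The sign of the Bhlhe40 difference changed across the alternatives (-0.11 to 0.16): it was 0.16 with the replicate number as a block, 0.08 with the acinar covariate, and of either sign when single libraries were left out.

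**Figure D1:**
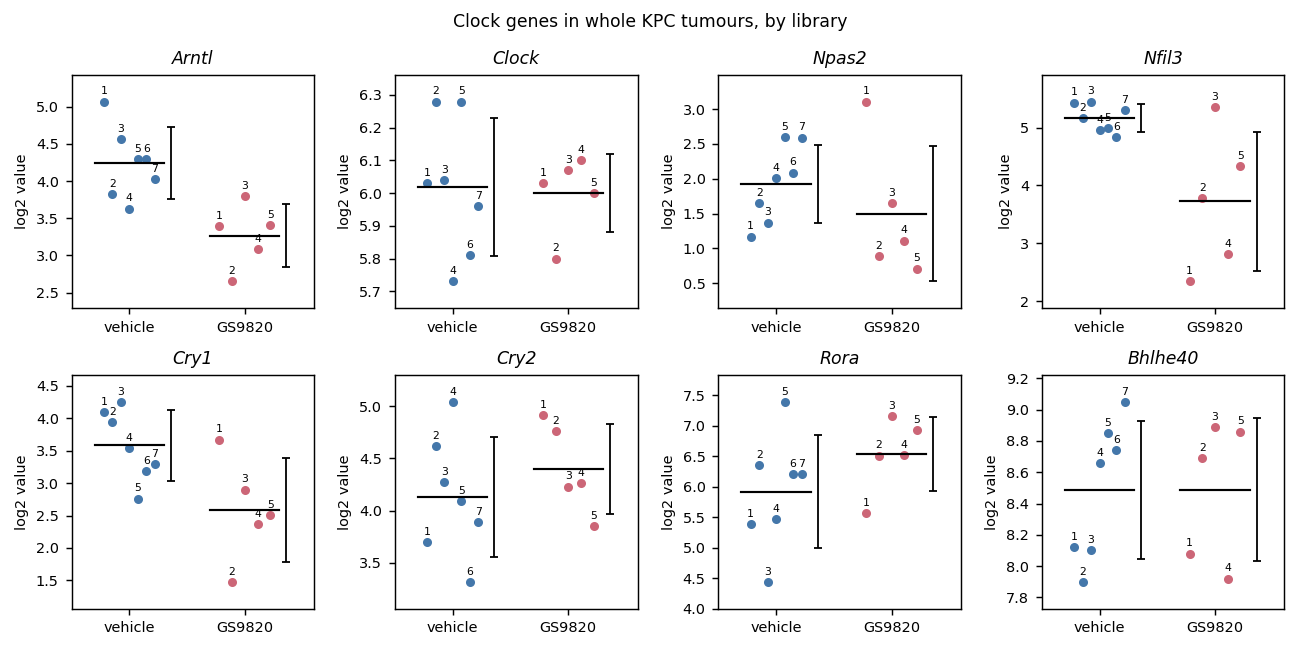
Deposited log2 values (vertical axis, scaled separately for each gene) of the 8 clock genes in 7 vehicle and 5 GS9820-treated tumours; points are libraries with their replicate numbers, horizontal lines are group means and bars are 1 SD. Treated tumours 1, 2, 4 and 5 lie below all vehicle tumours for Arntl and Nfil3, treated tumour 3 does not, and the treated Clock, Cry2, Rora and Bhlhe40 values fall inside the vehicle range.

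Some of the repressor and output genes gave the other side of the same contrast. The 10 genes were Dbp, Tef, Hlf, Nr1d1, Nr1d2, Per1, Per2, Per3, Ciart and Bhlhe41. Of them 5 were called, against 2.2% of all genes, and all 5 were higher in treated tumours: Dbp, Nr1d1, Nr1d2, Per3 and Tef. Hlf, at 2.06 (SE 0.77), Per2, at 0.65 (SE 0.39), and Per1, at 0.19 (SE 0.38), were not called. Neither were Ciart, at -0.03 (SE 0.38), and Bhlhe41, at -0.35 (SE 0.31). This list was also known to differ when the 8 genes were chosen and is no independent evidence. The median difference was 1.21 for these 10 genes and -0.22 for the 8, against -0.06 for all genes (quartiles -0.39 and 0.31).

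Dbp, the D-box activator, ran from 2.81 through 3.73 to 4.62 in vehicle tumours and had 7.13, 6.61, 4.57, 6.34 and 5.62 in treated tumours. Nr1d1, which encodes REV-ERBα, ran from 3.60 through 4.70 to 5.01 and had 6.66, 6.65, 5.69, 6.07 and 5.31. The differences were 2.39 (SE 0.42) for Dbp and 1.52 (SE 0.29) for Nr1d1. Treated tumour 3 was lowest for Dbp and highest for Nfil3 and Arntl among the treated tumours, and treated tumour 1 was highest for Dbp and lowest for Nfil3.

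Within one library, the difference between the log2 values of 2 genes is not moved by a single scaling factor for that library. A normalization that changes the shape of a library's values could move it, and how libraries were normalized is not given. Arntl minus Dbp lay between -0.40 and 1.38 in the 7 vehicle tumours and was -3.74, -3.96, -0.77, -3.25 and -2.21 in the treated tumours. Arntl minus Nr1d1 lay between -1.02 and 0.43 in vehicle tumours and was -3.28, -4.00, -1.89, -2.98 and -1.90 in treated tumours. All 5 treated tumours, tumour 3 included, lay below all 7 vehicle tumours in both differences. The genes of each pair were chosen with their opposite differences known, so this separation is a description and no support. Among single genes, 2.81% of all 16296 did not overlap between treated and vehicle tumours. Such a share was not computed for differences of 2 genes. Which gene of a pair moved is not given by such a difference.

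The other clock lists gave few calls in tumours. Of 15 genes for kinases, ubiquitin ligases and other modifiers of clock proteins, 0 were called (median difference -0.17); the smallest unadjusted p belonged to Csnk1e, a casein kinase that marks PER proteins, at -0.82 (SE 0.26), and Ddb1, at -0.75 (SE 0.26). Of 10 clock-controlled genes 0 were called (median -0.24), with Lpin1 at 0.44 (SE 0.25) and Pfkfb3 at -0.49 (SE 0.35). Arntl2, the paralog of Arntl, differed by -0.89 (SE 0.50) and was not called. A further list held immune signalling genes and hypoxia-responsive genes, taken as background to Nfil3 and Bhlhe40. All 9 measured had negative differences (median -0.83) and 1 was called: Ankrd37, a hypoxia-responsive gene, was lower, at -2.03 (SE 0.43). Egln3, a HIF prolyl hydroxylase, had -2.70 (SE 0.67) and was not called. Bhlhe40 did not share that difference. Without treated tumour 3, where 2.9% of all genes were called, Bnip3, a hypoxia-responsive mitophagy receptor, was called as well as Ankrd37, at -2.12 (SE 0.38), and the same 5 output genes were called.

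These tumour counts rested on few libraries. Without treated tumour 4 no gene at all was called in tumours, so the 5 output genes and Ankrd37 were not called either, and without vehicle tumour 5 the number rose from 359 to 1690. With the acinar marker mean as a covariate 0 genes were called, and the differences were -0.78 for Arntl, -1.13 for Nfil3 and -0.83 for Cry1. The part of islet, adipocyte and other cell contents in these differences was not tested; adipocyte marker means (5 of 6 genes measured) were -0.87 to 3.49 in vehicle and 0.06 to 6.26 in treated tumours.

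**Figure D2:**
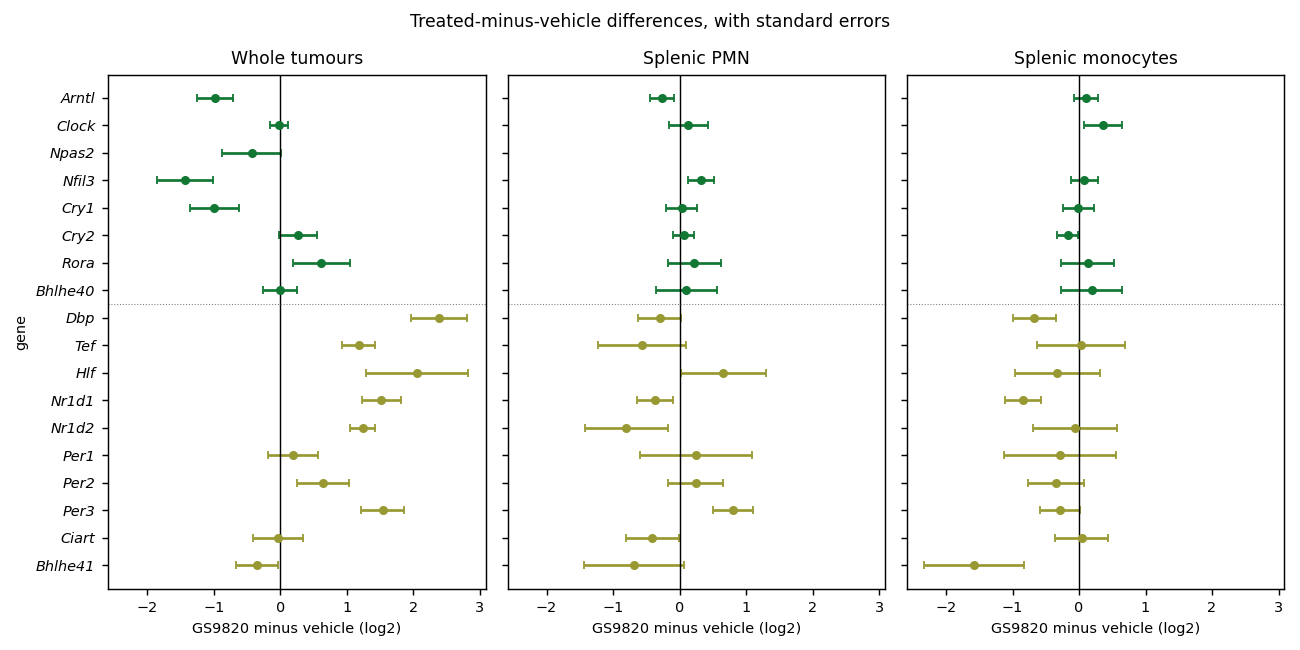
Treated-minus-vehicle differences (horizontal axis, log2) with standard errors in tumours, PMN and monocytes for the 8 clock genes (green, above the dotted line) and 10 repressor and output genes (olive, below it). In tumours Arntl, Nfil3 and Cry1 lie to the left of 0 and Dbp, Nr1d1, Nr1d2, Per3 and Tef to the right; in the sorted cells no gene shown was called.

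**Figure D3:**
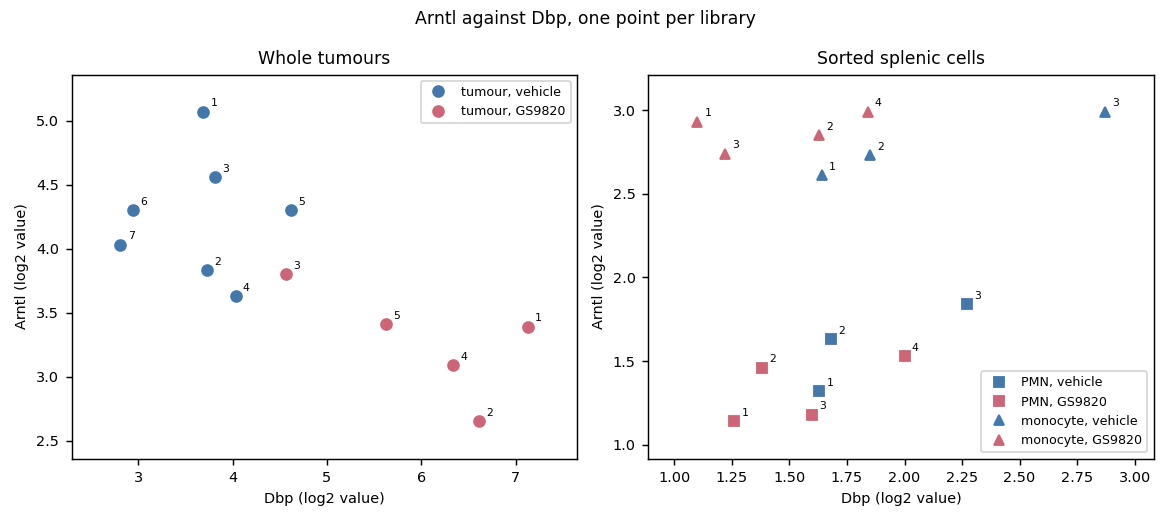
Arntl (vertical axis) against Dbp (horizontal axis), log2 values, 1 point per library with its replicate number. The tumours (left) and the sorted cells (right) are separate sets and are not compared with each other. Treated tumours lie at high Dbp and low Arntl, with treated tumour 3 nearest to the vehicle tumours, and monocytes lie above PMN in Arntl.

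A measure that the choice of genes did not use is whether the 8 genes varied with Dbp or Nr1d1 among the 7 vehicle tumours alone. In 16 relations Pearson's r ran from -0.54 to 0.52, and 8 were negative. None passed (0 of 16 at an unadjusted p under 0.05 by Pearson or Spearman; exact permutation tests, two-sided; smallest adjusted p 0.991). Arntl and Dbp had r = 0.01 (exact permutation p = 0.991) and Spearman's rho = -0.21 (exact permutation p = 0.662), and r was -0.23 without the 2 libraries farthest from the median of Dbp. Arntl and Nr1d1 had r = 0.30 (exact permutation p = 0.489) and rho = 0.43 (exact permutation p = 0.354), and r was 0.52 without the 2 farthest libraries. An opposite course of Arntl and Dbp was thus not detectable among the vehicle tumours, where only a close relation could pass with 7 libraries.

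In PMN, all 7 genes measured lay close in treated and vehicle libraries. None was called (0 of 7 by limma, and 0 of 7 at an unadjusted p under 0.05); over all 13968 genes 0% were called, with 430 at an unadjusted p under 0.05. Arntl was 1.32, 1.63 and 1.84 in vehicle PMN and 1.14, 1.46, 1.18 and 1.53 in treated PMN, a difference of -0.27 (SE 0.18). Treated libraries 1 and 3 lay below the vehicle range and the groups overlapped.

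Nfil3 was 6.98, 7.56 and 7.18 in vehicle PMN and 7.51, 7.93, 7.63 and 7.18 in treated PMN, a difference of 0.32 (SE 0.20), opposite in sign to that in tumours. The other differences in PMN were 0.13 (SE 0.29) for Clock, 0.03 (SE 0.23) for Cry1, 0.06 (SE 0.16) for Cry2, 0.22 (SE 0.40) for Rora and 0.10 (SE 0.46) for Bhlhe40. All 7 genes overlapped between the groups, where 3.77% of all genes did not. Erythroid marker means (5 of 6 genes measured) were 4.72 to 7.61 in vehicle and 2.33 to 4.46 in treated PMN, and their part in these values was not tested. Of the 10 repressor and output genes 0 were called, with the smallest unadjusted p for Per3, at 0.80 (SE 0.30), and Nr1d1, at -0.37 (SE 0.27). The other lists had 0 calls as well; their smallest unadjusted p belonged to Gsk3b, a kinase of clock proteins, at 0.21 (SE 0.11), and Btrc, a ubiquitin ligase subunit, at -0.25 (SE 0.15), to Por, at -0.18 (SE 0.12), and Lpin1, at -0.82 (SE 0.58), and to Tgfb1, at 0.27 (SE 0.32), and Hif1a, at -0.14 (SE 0.17).

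In monocytes the 7 genes likewise gave no call (0 of 7 by limma, 0 of 7 at an unadjusted p under 0.05; 0% of all 13968 genes called, 335 at an unadjusted p under 0.05). Arntl was 2.61, 2.73 and 2.99 in vehicle and 2.93, 2.85, 2.74 and 2.99 in treated monocytes, a difference of 0.10 (SE 0.18). All 4 treated values lay within the vehicle range. Nfil3 differed by 0.08 (SE 0.20), Cry1 by -0.01 (SE 0.23) and Cry2 by -0.17 (SE 0.16). Without vehicle monocyte library 3 the differences were 0.21 for Arntl and -0.30 for Cry1, neither called.

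The same library moved the remaining genes further. Rora was 2.38, 1.86 and 4.10 in vehicle monocytes and 3.22, 2.74, 2.86 and 2.84 in treated monocytes, and the difference of 0.13 (SE 0.40) became 0.80 without that library. Clock was 3.73, 3.54 and 4.81 against 4.44, 4.54, 4.22 and 4.36, and its difference of 0.36 (SE 0.29) became 0.75. Bhlhe40 was 6.82, 6.88 and 4.84 against 6.19, 5.85, 6.92 and 6.52, and its difference of 0.19 (SE 0.46) became -0.48. Library 3 was thus high in Rora and Clock and low in Bhlhe40. None of the 3 was called with or without it.

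Nr1d1 and Dbp lay the other way in monocytes than in tumours. In PMN both had the same sign as in monocytes, at -0.37 (SE 0.27) for Nr1d1 and -0.30 (SE 0.32) for Dbp, and were not called. Nr1d1 was 1.70, 1.68 and 2.56 in vehicle and 0.86, 1.25, 1.12 and 1.33 in treated monocytes, a difference of -0.84 (SE 0.27), and Dbp differed by -0.67 (SE 0.32). Vehicle monocyte library 3 was high in both genes, and without it the differences were -0.55 (SE 0.27) for Nr1d1 and -0.30 (SE 0.30) for Dbp. Every treated monocyte library lay below every vehicle library for Nr1d1, as did 3.37% of all genes in one direction or the other, and neither gene was called. Bhlhe41 had -1.58 (SE 0.75), also with no overlap and no call. In the other lists, with 0 calls, the smallest unadjusted p belonged to Pfkfb3, at -0.38 (SE 0.17), and Wee1, at -0.41 (SE 0.35; -0.82 without vehicle monocyte library 3), to Btrc, at -0.34 (SE 0.15), and Fbxw11, at -0.20 (SE 0.11), and to Hif1a, at 0.31 (SE 0.17), and Il4ra, at 0.42 (SE 0.24). Arntl minus Nr1d1 was 0.91, 1.05 and 0.43 in vehicle and 2.07, 1.60, 1.63 and 1.66 in treated monocytes, and 0.33, 0.57 and 0.55 in vehicle and 0.17, 1.01, 0.70 and 0.47 in treated PMN. Treated monocytes thus lay above vehicle monocytes, treated tumours lay below vehicle tumours, and PMN groups overlapped. Arntl itself differed by 0.1 in monocytes, with overlap. As in tumours, the genes were chosen with treated-against-vehicle differences known, so this separation is a description and no support. The difference between tumours and monocytes was not tested, because how the sets were normalized to each other is not given. The treatment effects in monocytes and PMN were compared directly: 0 of 7 genes differed, and 0% of all genes were called (269 at an unadjusted p under 0.05).

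The comparison of monocytes with PMN did not use the contrast that chose the genes. Here the clock genes differed more: in vehicle mice Arntl was higher in monocytes and Nfil3, Bhlhe40 and Cry1 were lower (4 of 7 called), and in treated mice the same 4 differed in the same directions and Clock was higher (5 of 7 called). Most genes differed between the cell types, with 60.1% of all 13968 genes called in vehicle and 69.6% in treated mice, so these shares of the 7 are near the background. The vehicle and treated comparisons set different libraries against each other. Both took their spread from the same fit of all 14 sorted-cell libraries, so their p-values are not independent.

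Arntl was higher in monocytes by 1.18 (SE 0.20; limma, adjusted p = 0.000249) in vehicle and by 1.55 (SE 0.17; limma, adjusted p = 5.5e-06) in treated mice. All 7 monocyte libraries, at 2.61 to 2.99, lay above all 7 PMN libraries, at 1.14 to 1.84. Separation of the cell types was common: 59.5% of all 13968 genes did not overlap in vehicle mice and 69.5% in treated mice. Nothing particular to Arntl, or to the genes below, is therefore read from a lack of overlap. In order of the group means, treated PMN (1.33 ± 0.20, SD, n = 4) and vehicle PMN (1.60 ± 0.26, n = 3) were neighbours within their spread, as were vehicle (2.78 ± 0.19, n = 3) and treated monocytes (2.88 ± 0.11, n = 4). Clock was higher in treated monocytes by 0.72 (SE 0.27; limma, adjusted p = 0.029) and by 0.49 (SE 0.31; limma, adjusted p = 0.189) in vehicle mice. The treated call for Clock was lost when any of 5 libraries was left out: treated PMN 1 or 2 (adjusted p 0.0582 and 0.078) or treated monocyte 1, 2 or 4 (0.0571, 0.0684 and 0.0505).

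Nfil3 was lower in monocytes, with differences of -0.84 (SE 0.22; limma, adjusted p = 0.00527) in vehicle and -1.08 (SE 0.19; limma, adjusted p = 0.000246) in treated mice. Its values were 6.09 to 6.84 in the 7 monocyte libraries and 6.98 to 7.93 in the 7 PMN libraries, with no overlap. Bhlhe40 had differences of -1.62 (SE 0.49; limma, adjusted p = 0.0123) and -1.52 (SE 0.42; limma, adjusted p = 0.00623). PMN libraries held 7.37, 8.55 and 7.47 (vehicle) and 7.76, 7.53, 8.20 and 8.08 (treated), all above every monocyte library. Without vehicle monocyte library 3 the vehicle Bhlhe40 difference was -0.95 (limma, adjusted p = 0.0381), and without vehicle PMN library 2 it was -1.24 and was not called (limma, adjusted p = 0.0561).

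Cry1 was 5.47, 6.15 and 5.30 in vehicle PMN and 5.29, 5.31 and 4.43 in vehicle monocytes, a difference of -0.63 (SE 0.24; limma, adjusted p = 0.0392). The vehicle groups overlapped by a narrow margin. In treated mice PMN had 5.60, 5.60, 5.78 and 5.70 and monocytes 5.24, 4.91, 4.90 and 4.93, with no overlap and a difference of -0.67 (SE 0.21; limma, adjusted p = 0.0118). The vehicle call was lost without vehicle monocyte library 3 (-0.34; limma, adjusted p = 0.169) and without vehicle PMN library 2 (-0.37; limma, adjusted p = 0.176).

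Rora and Cry2 were not called between the cell types. Rora differed by 0.66 (SE 0.42; limma, adjusted p = 0.193) in vehicle and 0.58 (SE 0.37; limma, adjusted p = 0.177) in treated mice. Treated monocytes (2.74 to 3.22) all lay above treated PMN (2.10 to 2.61), and without vehicle monocyte library 3 the treated difference was called (limma, adjusted p = 0.0138) while the vehicle difference fell to -0.00023. Without vehicle monocyte library 2 the vehicle difference was 1.12 and was called (limma, adjusted p = 0.0274). Cry2 differed by 0.21 (SE 0.17) in vehicle and -0.02 (SE 0.15) in treated mice, and the sign of the treated value changed under quantile normalization.

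Markers of other cells also differed between the sorted populations: NK markers averaged 1.51 to 6.58 in PMN and 1.01 to 3.45 in monocyte libraries, and B cell markers 4.26 to 5.42 and 2.23 to 3.65. Neutrophil markers, at 12.22 to 12.46 in PMN, averaged 8.32 to 11.14 in monocyte libraries and were lowest in vehicle monocyte library 3. The part of these markers in the clock differences, and in the clock values of that library, was not tested.

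For the other clock genes, counts called between the cell types are read against the 60.1% (vehicle) and 69.6% (treated) of all genes called. Of the 10 repressor and output genes, 2 were higher and 2 lower in monocytes of vehicle mice, and 1 was higher and 2 lower in treated mice, both shares below those of all genes. Per2, the period repressor, had -2.76 (SE 0.45) and -3.36 (SE 0.39), and Bhlhe41, the DEC2 paralog of Bhlhe40, had -2.03 (SE 0.80) and -2.93 (SE 0.70). Per3 (1.27, SE 0.32) and Nr1d1 (0.87, SE 0.29) were higher in vehicle monocytes, and Ciart (1.10, SE 0.37) in treated monocytes. Without vehicle monocyte library 3 the vehicle calls for Nr1d1 (0.58; limma, adjusted p = 0.0933) and Bhlhe41 (-1.96; limma, adjusted p = 0.0861) were lost, and Tef was called at -1.41 (limma, adjusted p = 0.0332). Of 13 measured modifiers, 4 were higher and 5 lower in vehicle mice and 4 higher and 6 lower in treated mice. In vehicle and treated mice Timeless was higher by 2.84 (SE 0.30) and 2.46 (SE 0.26) and Ddb1 by 0.95 (SE 0.10) and 1.05 (SE 0.09). Csnk1e had -1.95 (SE 0.30) and -1.85 (SE 0.26), and Cul1, a ligase scaffold, was higher by 0.56 (SE 0.11) and 0.71 (SE 0.09).

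Of 10 clock-controlled genes, 1 was higher and 3 lower in vehicle and 2 higher and 3 lower in treated monocytes. Wee1, a cell-cycle kinase, was higher by 2.54 (SE 0.38) and 2.01 (SE 0.33), and Por, the P450 oxidoreductase, had -1.91 (SE 0.13) and -1.87 (SE 0.11). Nampt, the rate-limiting enzyme of NAD salvage, had -1.67 (SE 0.29) and -1.27 (SE 0.26), and Pfkfb3, a regulator of glycolysis, had -0.74 (SE 0.18) and -1.35 (SE 0.16). Of the 9 measured immune signalling and hypoxia-responsive genes, 4 were lower and 1 higher in vehicle, and 5 lower and 1 higher in treated monocytes. Bnip3, a hypoxia-induced mitophagy gene, had -2.41 (SE 0.24) and -2.35 (SE 0.21), the same sign as Bhlhe40. Ankrd37 had -3.10 (SE 0.51) and -2.74 (SE 0.44), Egln3 had -3.03 (SE 0.58) and -3.12 (SE 0.50), and Il4ra, an interleukin receptor, had -1.72 (SE 0.25) and -1.43 (SE 0.22). Il3ra, the interleukin-3 receptor, was higher by 1.47 (SE 0.28) and 1.10 (SE 0.24).

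**Figure D4:**
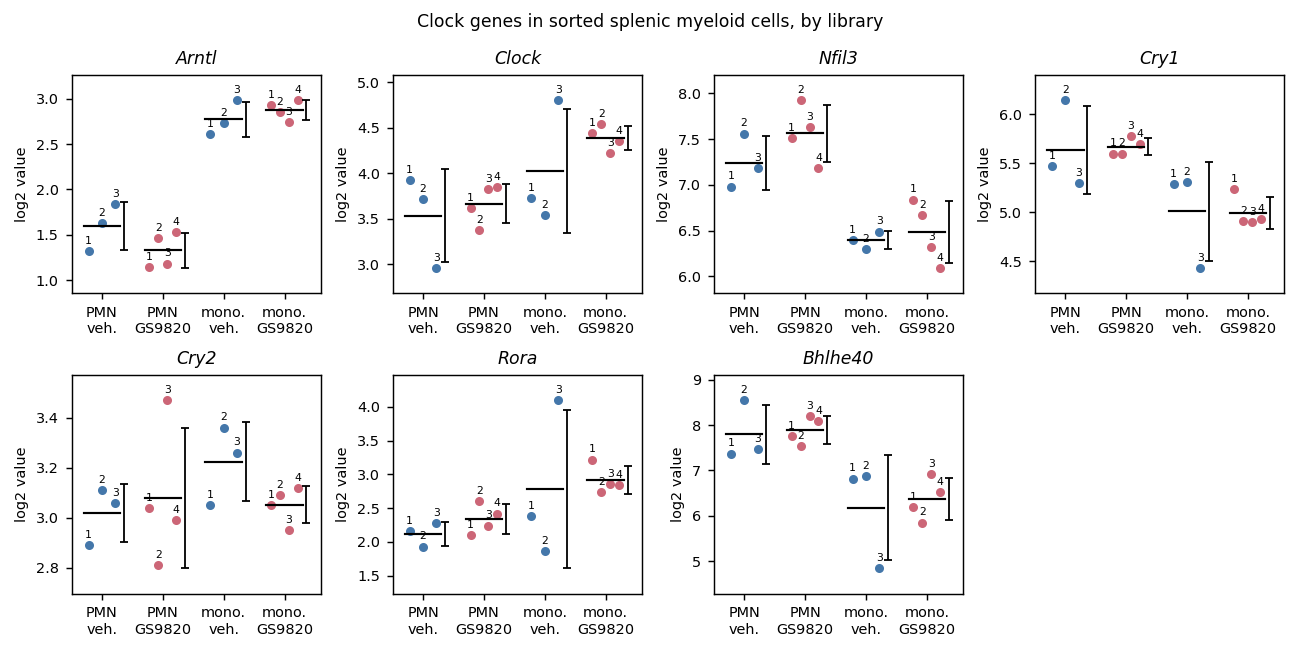
Deposited log2 values (vertical axis, scaled separately for each gene) of 7 clock genes in sorted splenic PMN and monocytes from vehicle and GS9820-treated KPC mice; points are libraries with replicate numbers, horizontal lines are means and bars are 1 SD. Arntl is higher and Nfil3 and Bhlhe40 are lower in all 7 monocyte libraries than in all 7 PMN libraries, and vehicle monocyte library 3 stands apart in Clock, Cry1, Rora and Bhlhe40.

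The 8 genes did not vary as 1 block within groups. In deviations from the group means over the 12 tumours, Pearson's r was 0.50 for Arntl with Cry1 and 0.36 for Arntl with Nfil3, while Cry1 had -0.62 with Rora and -0.57 with Bhlhe40. Arntl with Cry2 had -0.57, and Rora with Bhlhe40 had 0.55. Over the 14 sorted-cell libraries Cry1 and Bhlhe40 had 0.82 and Rora and Bhlhe40 -0.80, both the opposite sign of the tumour values, and Cry1 and Rora had -0.69, the same sign. Without vehicle monocyte library 3 (13 libraries) these were 0.61, -0.34 and -0.15. These values describe libraries that differ in cell content and whose normalization to each other is not given.

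By the same measure, the protein-coding genes most like Arntl over the tumours were Nudt4 (r = 0.948), Uqcc2 (0.922), Nudt2 (0.911), Lhfpl2 (0.911) and Gdnf (0.902), of 12635 genes. Those most like Bhlhe40 were Ahr (0.875), Rnase2a (0.834), Cxcl1 (0.822), Psrc1 (0.820) and Mcc (0.818). Over the sorted-cell libraries, of 10047 genes, those most like Arntl were Purg (0.896), Selenoi (0.885), Rpp21 (0.866), Uhrf2 (0.845) and Cuta (0.835), and those most like Bhlhe40 were Tnfrsf23 (0.985), Rab37 (0.967), Nanos1 (0.965), Ffar2 (0.959) and Slco3a1 (0.958), with vehicle monocyte library 3 among the points.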

How the data were processed

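The authors deposited 1 log2 expression value per gene, named log2 RPKM, in each of 26 libraries. The submitters' processing notes name TopHat2, STAR, limma and mm10, with no versions or roles. Per the labels, tumour RNA was prepared as stranded total RNA after ribosomal depletion, and sorted-cell RNA with either of 2 kits, which one per library not being given. Sorted by size, the deposited log2 values of 2 libraries of a set were never more than 0.861 apart in tumours or 1.72 apart in sorted-cell libraries; how libraries were normalized to each other is not given in the sources used here, and counts and depth are unknown.

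Symbols came from GENCODE M21 (GRCm38). A gene was kept when 5 or more tumours, or 3 or more sorted-cell libraries, had a value of 0 or higher, which left 16296 and 13968 genes. Differences were tested two-sided with limma 3.58.1 in R 4.3.3 (lmFit, then eBayes with trend), with Benjamini-Hochberg adjustment over all kept genes and a threshold of 0.05. The 12 tumours were fitted together, and so were the 14 sorted-cell libraries, as 4 groups. The fit was tested on simulated data. Correlations used exact permutation over pairings in Python 3.11.15, and figures matplotlib 3.10.9.

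The members and lists were chosen with earlier results of these data known. Named were all 8 members; of each list up to 4 called genes by smallest p, or else the 2 of smallest p; Dbp and Nr1d1; and the 5 genes most like Arntl and Bhlhe40 (mean of at least 1). Names beyond this rule were chosen after their values were seen. In tumours these were Tef, Egln3, Bnip3 and the uncalled repressor and output genes. In sorted cells they were Dbp in PMN and in monocytes, and Tef in vehicle monocytes against PMN. Members of these lists were also given in both treatment groups where the rule named them in 1. Some genes that the rule names are not reported here. Alternatives covered the filter, a pseudocount of 1, scaling, the eBayes options, library weights, an acinar covariate, the replicate number and each library left out.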

Additional observations from a re-analysis of the deposited data

Results flagged for a closer look

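In treated monocytes, Cry1 in library 1 had a log2 value of 5.24 against 4.91, 4.90 and 4.93 in the other 3 libraries. Its gap to the next library was 0.921 of the group's range. It was the only flag among 30 groups of 4 to 7 libraries tested for a value far from the rest, a test that flags about 5% of groups by chance. Without that library the Cry1 difference between monocytes and PMN in treated mice was -0.76 (limma, adjusted p = 0.0116).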

How the results depend on the processing

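In tumours Arntl, Nfil3 and Cry1 kept a negative difference under all 22 alternatives (-1.11 to -0.78, -1.84 to -1.09 and -1.26 to -0.72). The number of the 8 genes called moved from 0 to 3 with array quality weights (Arntl -0.89, adjusted p 0.0205; Nfil3 -1.34, 0.0265; Cry1 -1.12, 0.022), which called 2764 genes in all, and ran from 0 to 1 with each library left out. In PMN, in monocytes and for the difference of the treatment effects, 0 of 7 were called under all 24 alternatives. For monocytes against PMN in vehicle mice, the count of 4 became 1 with array quality weights, 2 in a fit of only those groups, and 2 to 5 with each library left out; Arntl was called under all 24. In treated mice it was 4 to 6, and Arntl, Nfil3, Cry1 and Bhlhe40 were called under all 24. Rora in vehicle mice ran from -0.00023 to 1.12 with each library left out, and Cry2 in treated mice was 0.0036 after quantile normalization and -0.11 to 0.11 with each library left out. In vehicle tumours the number of relations passing ran from 0 to 1 with each library left out: Npas2 with Nr1d1 had r = -0.893 (exact permutation, adjusted p = 0.022, n = 6) without vehicle tumour 5. The r of Arntl with Dbp ran from -0.14 to 0.19. The causes were not tested.

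With the replicate number as a replicate block, 0 of 8 genes were called in tumours (166 of all genes, from 359) and 4 of 7 between monocytes and PMN in vehicle and in treated mice, where Clock (0.72) had an adjusted p of 0.0875. Same-numbered libraries had correlated deviations of -0.438 to 0.457. In no comparison were all above 0.1. A library correlated best with its own number in 18 of 36 checks, where a sorted-cell library could count more than once. The number to be had by chance was not computed. Between PMN and monocytes of vehicle mice the count was 6 of 6, as a hint from the data. As the labels name no pairs, the numbers were not treated as pairs in the main fit. Depth is unknown and its limits could not be given.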
